A study of Homo sapiens with 8 samples.

Results

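Heat shock and cytosolic chaperone genes are described here in macrophages made from the human cell line THP-1, given lipopolysaccharide (LPS) with or without 3-hydroxypropionic acid (3-HPA). The genes are 45 of the 30233 in the expression table, taken by symbol from a list of heat shock factors, HSP40, HSP70, HSP90 and chaperonin genes and their co-chaperones. All 45 were in the table, and 41 passed the filter on low values. The list is not wholly cytosolic: HSPA9, HSPD1, HSPE1, TRAP1 and DNAJA3 encode mitochondrial chaperones, HSPA13 a microsomal HSP70 relative, and HSPB11 (listed in the reference names as IFT25) a subunit of the intraflagellar transport machinery.

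THP-1 is a line of leukaemic monocytes, which become macrophage-like on exposure to the phorbol ester PMA. Cells of both groups were wild type, had PMA at 100 ng/ml for 24 h, rested for 24 h in medium without it, and then had LPS, a bacterial cell-wall component that sets off inflammatory gene expression, at 100 ng/mL. The 4 LPS + 3-HPA libraries came from cells that also had 5 mM 3-HPA, a small organic acid, given together with LPS per the treatment protocol, although the series text speaks of pretreatment. The 4 LPS libraries had no 3-HPA. No library of unstimulated cells or of 3-HPA alone was analysed here, so each difference is between LPS with and without 3-HPA, and how long LPS was left on the cells is not stated in these sources. Nothing states that the 4 libraries of a group came from separate cultures, so p-values measure only how far these libraries differ, and that spread may be technical.

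Chaperones help proteins fold and keep unfolded ones from clumping. HSP70 binds short exposed stretches of a client protein under the control of J proteins, which start its ATP cycle, and of nucleotide exchange factors, which end it, and STIP1 bridges HSP70 to HSP90, which finishes the folding of kinases, steroid receptors and other signalling proteins. Many of these genes are switched on by heat shock factor 1 (HSF1) when unfolded protein accumulates, and activated macrophages rely on HSP90 and HSP70 clients in several signalling pathways.

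Library totals, recovered from the deposited values, were 35647756 to 40362671 reads in LPS + 3-HPA libraries and 37509810 to 41859879 in LPS libraries. Expression is given as FPKM, which divides the fragments of a gene by its length and by the library size. Values summed to 245960 to 248765 in LPS + 3-HPA libraries and 240783 to 241800 in LPS libraries. Transcripts of the mitochondrial genome held 4.37 to 4.58% of the summed FPKM in LPS + 3-HPA libraries and 2.94 to 3.08% in LPS libraries. Of 7 macrophage markers, 6 reached 0.5 FPKM, and their summed level was 1010.0 to 1063 FPKM with LPS + 3-HPA and 767.5 to 786.3 FPKM with LPS. The other marker, CD68, was listed at 0.0259 to 0.126 FPKM with LPS + 3-HPA and 0.0601 to 0.0784 FPKM with LPS. CD14, CSF1R and SPI1 made up nearly all of the macrophage sum. They and ITGAM lay higher with LPS + 3-HPA. The groups overlapped for LYZ (11.1 to 13.6 FPKM with LPS + 3-HPA, 12.2 to 13.6 FPKM with LPS) and CD33 (2.98 to 3.66 FPKM, 3.18 to 3.53 FPKM). Of 3 B cell markers none reached 0.5 FPKM, and of 3 fibroblast markers only COL1A1 did, at 3.65 to 4.02 FPKM with LPS + 3-HPA and 1.93 to 2.28 FPKM with LPS. The part of these marker differences in the results was not tested. In bulk RNA, fewer cells of a type and less RNA per cell cannot be told apart.

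With 3-HPA added to LPS, STIP1, CDC37, DNAJB1, HSPA8, FKBP4 and BAG3 rose, while 17 other chaperone genes fell, led by FKBP5, HSPA9, BAG1, BAG2 and DNAJB2. The changes were small. Of the 6 rises, 4 were called under every alternative run, all but FKBP4 and BAG3, as were 12 of the 17 falls. The largest percent rise was the 29.1% of STIP1, while FKBP5 fell by 37.9% and BAG2 fell by 38.8%. The most abundant chaperone mRNAs did not move one way: HSPA8 rose by 7.69%, HSP90AB1 fell by 3.93%, HSP90AA1 fell by 12.8% and DNAJA1 fell by 16.4%.

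Of the 41 genes tested, 6 were higher with LPS + 3-HPA than with LPS (14.6%), 17 were lower (41.5%) and 18 did not pass limma's test at an adjusted p of 0.05. Over all 12499 genes tested, 15.7% were higher and 28.0% were lower, 43.7% in all. Calls were more frequent among abundant genes. Of the 26 with a mean of at least 10 FPKM, 4 were higher (15.4%) and 13 lower (50%), while of all 3577 genes at that level 24.9% were higher and 39.7% were lower, 64.6% in all. The median log2 fold change was -0.07 over the 41 genes and -0.05 over all genes. Differences of at least 0.2 in size on the log2 scale were found in 31.7% of the 41 genes and in 34.0% of all genes, and differences of at least 0.5 in 2.44% and 7.27%. In 4 of the 41 genes all LPS + 3-HPA values lay above all LPS values, in 16 all lay below, and in 21 the groups overlapped. Over all genes, 15.3% lay wholly above and 26.9% wholly below, 42.2% in all. The summed level of all chaperone genes, as deposited, was 1351 to 1371 FPKM in LPS + 3-HPA libraries and 1420 to 1435 FPKM in LPS libraries. The split of calls and the gap between these sums depend on scaling. With trimmed-mean (TMM) scaling, which put the median of all genes at -0.0026, 9 were higher and 12 lower (42.9% of calls higher, against 26.1% without it), and with equal FPKM totals, 5 were higher and 21 lower. TMM scaling divides LPS + 3-HPA values by 0.975 to 0.983 and LPS values by 1.017 to 1.024. It thus raises the former sums and lowers the latter, here and in the role groups below.

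**Figure D1:**
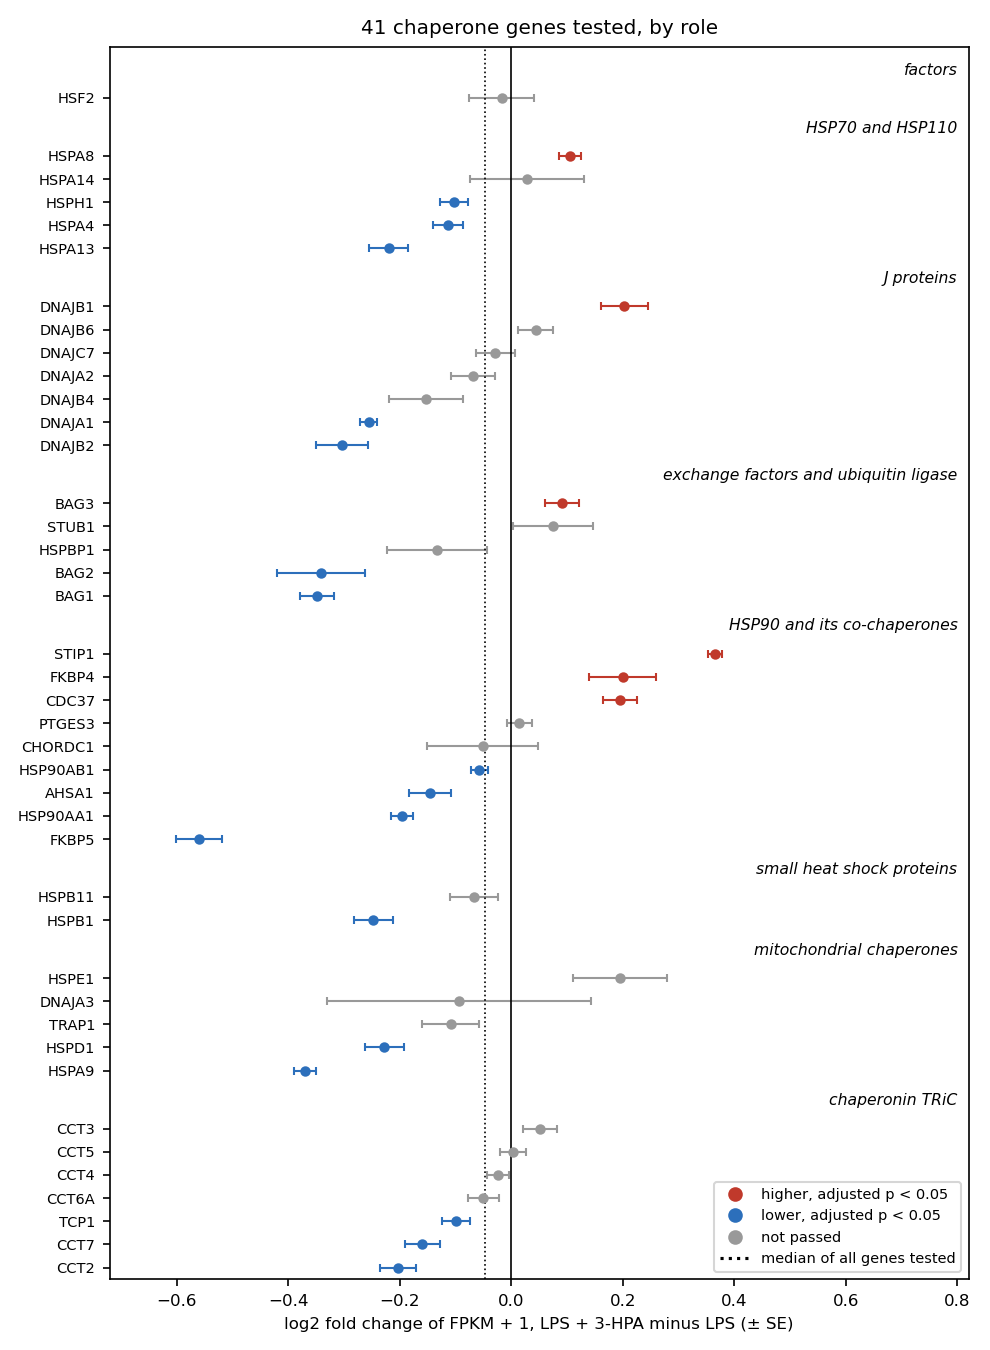
Log2 fold change (LPS + 3-HPA minus LPS, on log2(FPKM + 1)) of the 41 chaperone genes tested, grouped by role, with bars of 1 SE from limma and a dotted line at the median of all genes. STIP1 at 0.36 and FKBP5 at -0.56 are the outermost points, and both belong to the HSP90 group.

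The heat shock factors come first in the order of control. HSF2, a factor of the same family as HSF1 that binds the same DNA element, had 10.98, 9.29, 8.80 and 10.2 FPKM in LPS + 3-HPA libraries, against 10.2, 9.89, 9.80 and 9.78 FPKM in LPS libraries. The groups overlapped, and the log2 fold change was -0.02 (limma adjusted p = 0.833, 95% interval -0.15 to 0.12). HSF1 was listed at 0, 0.00934, 0.0106 and 0 FPKM in LPS + 3-HPA libraries, against 0.0302, 0, 0 and 0.0180 FPKM in LPS libraries, 0 to 6 reads per library. The stress-inducible HSP70 genes HSPA1A and HSPA1B were each listed at 0 in 7 libraries and at 0.0199 and 0.0190 FPKM in LPS library 4. The chaperonin gene CCT8 was listed at 0 in 6 libraries, with 0 to 7 reads. These 4 genes were not tested. HSPA1A and HSPA1B share 71.2% and 73.2% of their 75-base stretches with another gene, HSF1 3.14% and CCT8 1.29%. Why genes that many cells transcribe are listed near 0 was not tested, and no level is read from these values.

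HSF1 and HSF2 bind the heat shock element, made of repeats of GAA and its complement TTC. The promoter windows of RefSeq (GRCh38.p14), from 250 bases before to 50 after the start of a gene, held 1 or more windows for 40 of the 45 genes. Searched on both strands, 3 alternating units in a row, GAANNTTCNNGAA or TTCNNGAANNTTC, stood in a window of 7 of those 40 genes (17.5%) and of 0.608% of all genes with a window. The shorter form of 2 units, GAANNTTC or TTCNNGAA, which every longer match contains, stood in 18 of the 40 (45%) and in 16.2% of all genes. The 3-unit element was in 1 of the 5 higher genes with a window (HSPA8), in 4 of the 17 lower genes (DNAJA1, HSP90AA1, HSP90AB1 and HSPD1) and in 2 of the 15 that did not pass (CHORDC1 and DNAJB6). Genes with the element stood on both sides of the comparison. A match is a description of the letters, not a binding site. The stretches below show the element in genes that rose, fell or did not pass, 5′ to 3′ on the strand of the gene, with the element in capitals. Upstream is counted from a RefSeq start, and every stretch lies within the span of its gene in GENCODE 29. The stretches of HSPA8, HSP90AA1, HSPD1 and CHORDC1 overlap exons annotated there. The 2-unit element was in 3 of the 5 higher genes with a window, 9 of the 17 lower, 4 of the 15 that did not pass and 2 of the 3 not tested. Of these only DNAJB1, which rose and holds a pair of them, is printed for that element. The HSPD1 stretch also lies within HSPE1 (197499994 to 197503457, plus strand), which did not pass, so it cannot be assigned to HSPD1 alone.
HSPA8 (rose), chr11:123062170-123062199, minus strand, 63 to 34 bases upstream: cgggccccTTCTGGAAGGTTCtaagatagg
DNAJB1 (rose), chr19:14518428-14518487, minus strand, 90 to 31 bases upstream: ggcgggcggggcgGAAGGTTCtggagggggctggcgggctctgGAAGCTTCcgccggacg
HSP90AB1 (fell), chr6:44247768-44247852, plus strand, 175 to 91 bases upstream: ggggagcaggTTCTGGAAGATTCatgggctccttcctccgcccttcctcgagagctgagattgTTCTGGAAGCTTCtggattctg
HSP90AA1 (fell), chr14:102087112-102087141, minus strand, 97 to 68 bases upstream: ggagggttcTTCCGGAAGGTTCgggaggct
HSPD1 (fell), chr2:197500061-197500090, minus strand, 250 to 221 bases upstream: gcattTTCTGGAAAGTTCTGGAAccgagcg
CHORDC1 (not passed), chr11:90223086-90223115, minus strand, 66 to 37 bases upstream: cgaccgGAAAATTCGCGAAGGTTCCTGAAa
DNAJB6 (not passed), chr7:157336854-157336903, plus strand, 150 to 101 bases upstream: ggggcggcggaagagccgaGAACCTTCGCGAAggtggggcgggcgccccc

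HSP90 and its co-chaperones were the most abundant group, with 619 to 635 FPKM summed in LPS + 3-HPA libraries and 629 to 638 FPKM in LPS libraries. Of its 9 genes, 3 rose, 4 fell and 2 did not pass. This count and those of the groups below are of few genes, and over all genes tested 15.7% rose and 28.0% fell. The constitutive HSP90AB1 was the most abundant of all 45 genes and held 16.8% of their summed mean FPKM. It had 231.7, 229.8, 225.5 and 229.8 FPKM with LPS + 3-HPA, against 242.5, 234.7, 236.9 and 240.2 FPKM with LPS. All 4 LPS + 3-HPA values lay below all LPS values, but the gap was small (log2 fold change -0.06, SE 0.0152, limma adjusted p = 0.0137), and it was 0.0037 (adjusted p = 0.883) under TMM scaling. The inducible HSP90AA1 had 151.6, 150.3, 143.2 and 149.7 FPKM with LPS + 3-HPA, against 173.0, 168.7, 171.6 and 168.7 FPKM with LPS. It fell by 0.20 on the log2 scale (limma adjusted p = 5.32e-05), again with no overlap. The ratio of HSP90AA1 to HSP90AB1 within a library, which is free of library scaling and is given without a test, like the other ratios, since the pairs were chosen with the values known, was 0.649 ± 0.00911 with LPS + 3-HPA and 0.715 ± 0.00938 with LPS (SD, n = 4 each).

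STIP1 (ENSG00000168439, on chromosome 11 from 64185272 to 64204543 in GRCh38), also called HOP, holds HSP70 and HSP90 together while a client passes between them. It had 99.4, 99.2, 99.8 and 99.2 FPKM in LPS + 3-HPA libraries, against 76.1, 76.9, 77.8 and 77.1 FPKM in LPS libraries. Every LPS + 3-HPA value was above every LPS value, and the means were 99.4 ± 0.278 and 77.0 ± 0.684 FPKM (SD, n = 4 each). On the log2 scale STIP1 rose by 0.36 (SE 0.0129, limma adjusted p = 6.27e-08), and it was called under every alternative run. Its partners moved less or the other way. The within-library ratio of STIP1 to HSP90AA1 was 0.669 ± 0.0189 with LPS + 3-HPA and 0.452 ± 0.00800 with LPS, and that of STIP1 to HSPA8 was 1.28 ± 0.0283 with LPS + 3-HPA and 1.07 ± 0.0247 with LPS (SD, n = 4 each).

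The client-loading co-chaperone CDC37, which brings kinases to HSP90, had 59.3, 55.4, 57.2 and 59.2 FPKM with LPS + 3-HPA, against 49.5, 52.8, 49.0 and 50.1 FPKM with LPS. All LPS + 3-HPA values were above all LPS values, and CDC37 rose by 0.20 on the log2 scale (SE 0.0301, limma adjusted p = 0.000728). FKBP5 (ENSG00000096060, on chromosome 6 from 35573585 to 35728583 in GRCh38) encodes FKBP51, an immunophilin that slows steroid receptor signalling on HSP90 and is itself a well-known target of the glucocorticoid receptor. It had 3.44, 3.58, 3.31 and 3.67 FPKM with LPS + 3-HPA, against 5.86, 5.86, 5.36 and 5.46 FPKM with LPS. The groups were far apart, and FKBP5 fell by 0.56 on the log2 scale (SE 0.0418, limma adjusted p = 6.74e-06), the largest of the 41 changes on that scale. At this level the scale of log2(FPKM + 1) understates the change, and the mean fell by 37.9%.

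FKBP4 encodes FKBP52, the relative of FKBP51 that favours receptor signalling. It had 2.76, 2.99, 2.75 and 2.53 FPKM with LPS + 3-HPA, against 2.29, 2.22, 2.02 and 2.56 FPKM with LPS. It rose by 0.20 (limma adjusted p = 0.0246) although LPS library 4 lay within the other group, and the call ended without LPS + 3-HPA library 1, 2 or 3 or without LPS library 2 or 3 (adjusted p 0.0508 to 0.0643). AHSA1, which stimulates the ATPase of HSP90, fell to 20.7 ± 1.00 FPKM with LPS + 3-HPA, against 23.0 ± 0.790 FPKM with LPS (log2 fold change -0.15, limma adjusted p = 0.0128), with overlap in 1 LPS library. Its adjusted p was 0.101 under TMM scaling and 0.0504 with quantile normalisation. PTGES3, the p23 protein that stabilises the closed form of HSP90, had a log2 fold change of 0.01 (limma adjusted p = 0.641, 95% interval -0.04 to 0.07), and passed as higher only under TMM scaling (adjusted p = 0.021). CHORDC1, a further HSP90 partner, was scarce, at 0.370 to 0.739 FPKM with LPS + 3-HPA and 0.514 to 0.910 FPKM with LPS, and did not pass (adjusted p = 0.714).

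**Figure D2:**
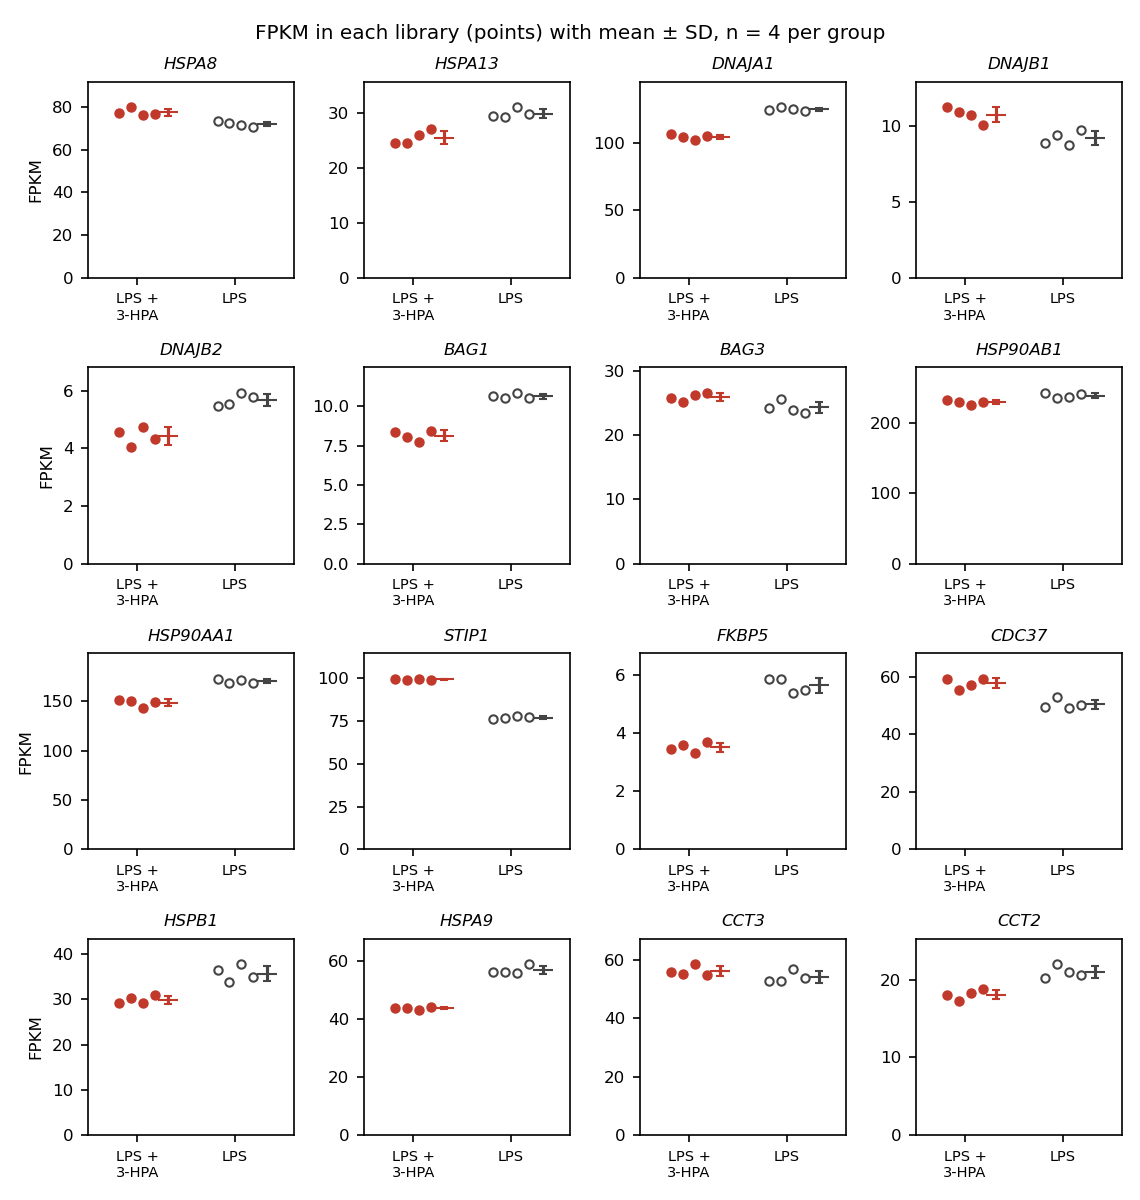
FPKM of 16 chaperone genes in each library, with LPS + 3-HPA left of LPS in each panel, points for libraries and bars for mean ± SD (n = 4). STIP1 is at 99.2 to 99.8 FPKM in LPS + 3-HPA libraries and 76.1 to 77.8 FPKM in LPS libraries, while FKBP5, HSPA9 and BAG1 lie lower with LPS + 3-HPA.

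Among the HSP70 and HSP110 genes, 1 of the 5 tested rose, 3 fell and 1 did not pass. HSPA8, the constitutive HSC70, had 77.2, 79.9, 76.3 and 76.8 FPKM with LPS + 3-HPA, against 73.3, 72.5, 71.4 and 70.8 FPKM with LPS. It was higher in all LPS + 3-HPA libraries (log2 fold change 0.11, SE 0.0194, limma adjusted p = 0.00206). HSPA13, the microsomal relative, had 24.6, 24.5, 26.0 and 27.1 FPKM with LPS + 3-HPA, against 29.4, 29.3, 31.1 and 29.8 FPKM with LPS. It fell by 0.22 (limma adjusted p = 0.00084) with no overlap. The HSP110 proteins HSPH1 and HSPA4, which act as exchange factors for HSP70, fell by 0.10 (adjusted p = 0.0093) and 0.11 (adjusted p = 0.00851), also with no overlap. Under TMM scaling neither passed, with adjusted p of 0.176 and 0.181. With quantile normalisation HSPH1 did not pass (adjusted p = 0.0877), while HSPA4 did (adjusted p = 0.0101). HSPA14, a ribosome-associated relative, was at 1.78 to 2.73 FPKM with LPS + 3-HPA and 1.91 to 2.69 FPKM with LPS (adjusted p = 0.845). The group summed to 152.3 to 154.7 FPKM with LPS + 3-HPA and 154.4 to 157.2 FPKM with LPS, and these ranges overlapped.

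Of the 7 J protein genes, 1 rose, 2 fell and 4 did not pass. DNAJA1, the main farnesylated HSP40 of the cytosol, had 106.4, 104.8, 102.6 and 105.1 FPKM with LPS + 3-HPA, against 124.9, 126.7, 125.3 and 124.0 FPKM with LPS. The groups were well apart, and it fell by 0.26 on the log2 scale (SE 0.0152, limma adjusted p = 1.53e-06). DNAJB1, the stress-inducible HSP40 that works with HSP70 in freeing aggregated protein, had 11.2, 10.9, 10.7 and 10.1 FPKM with LPS + 3-HPA, against 8.87, 9.41, 8.76 and 9.73 FPKM with LPS. It rose by 0.20 (limma adjusted p = 0.00392), the opposite direction to DNAJA1, with no overlap. The within-library ratio of DNAJB1 to DNAJA1 was 0.102 ± 0.00447 with LPS + 3-HPA and 0.0734 ± 0.00383 with LPS (SD, n = 4 each).

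DNAJB2, a J protein with ubiquitin-binding motifs that steers clients to the proteasome, had 4.57, 4.04, 4.75 and 4.32 FPKM with LPS + 3-HPA, against 5.48, 5.55, 5.92 and 5.78 FPKM with LPS. It fell by 0.30 (limma adjusted p = 0.000737), with no overlap. The others did not pass: DNAJA2, a close relative of DNAJA1, had a log2 fold change of -0.07 (adjusted p = 0.192), DNAJB4, a relative of DNAJB1, -0.15 (adjusted p = 0.0943), DNAJB6, which holds back aggregation of polyglutamine proteins, 0.04 (adjusted p = 0.288), and DNAJC7, which binds both HSP70 and HSP90, -0.03 (adjusted p = 0.559). DNAJB6 passed as higher under TMM scaling and quantile normalisation. DNAJB4 passed as lower with equal FPKM totals and without LPS library 1.

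Of the 5 genes of exchange factors and the ubiquitin ligase STUB1, 1 rose, 2 fell and 2 did not pass. BAG1, an exchange factor that links HSP70 to the proteasome, had 8.37, 8.03, 7.71 and 8.42 FPKM with LPS + 3-HPA, against 10.6, 10.5, 10.9 and 10.5 FPKM with LPS. It fell by 0.35 (SE 0.0311, limma adjusted p = 2.19e-05), with a wide gap between groups. BAG3, which links HSP70 to autophagy and is often induced by stress, had 25.8, 25.1, 26.3 and 26.6 FPKM with LPS + 3-HPA, against 24.3, 25.6, 24.0 and 23.5 FPKM with LPS. It rose by 0.09 (limma adjusted p = 0.0347), but LPS library 2 lay within the other group. The call ended in 6 of the 8 fits that left out a library, those without LPS + 3-HPA library 1, 3 or 4 or LPS library 1, 3 or 4 (adjusted p 0.0607 to 0.089). Equal FPKM totals ended it as well, over all genes (adjusted p = 0.174) or outside the mitochondrial genome. So did no filter on low values, limma without the trend and the replicate number as a block. The ratio of BAG1 to BAG3 was 0.313 ± 0.0139 with LPS + 3-HPA and 0.437 ± 0.0186 with LPS (SD, n = 4 each).

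BAG2, which keeps STUB1 in check, was scarce, with 0.692, 0.790, 0.869 and 0.496 FPKM with LPS + 3-HPA, against 1.19, 1.05, 1.32 and 1.09 FPKM with LPS. It fell by 0.34 (limma adjusted p = 0.00718) with no overlap. Its exons share 42.4% of 75-base stretches with overlapping genes, and whether counting used the strand is not stated in these sources, so its level is uncertain. HSPBP1, another exchange factor, had a log2 fold change of -0.13 (adjusted p = 0.269), and STUB1, the ligase also called CHIP that marks chaperone-bound clients for destruction, 0.07 (adjusted p = 0.439).

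**Figure D3:**
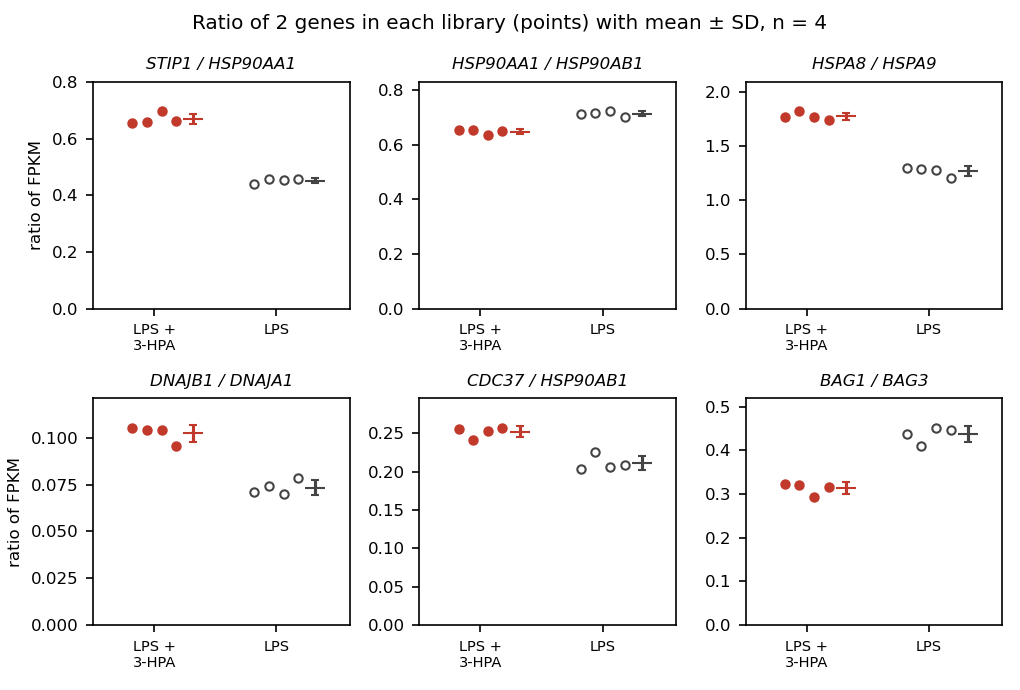
Ratios of FPKM between pairs of chaperone genes within each library, LPS + 3-HPA left of LPS, with points for libraries and bars for mean ± SD (n = 4). Since both genes come from the same library, scaling of the library drops out, and STIP1 to HSP90AA1 stood at 0.669 with LPS + 3-HPA and 0.452 with LPS.

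The small heat shock protein HSPB1 (HSP27), which holds unfolding proteins and binds actin, had 29.3, 30.2, 29.2 and 30.9 FPKM with LPS + 3-HPA, against 36.4, 33.7, 37.7 and 34.9 FPKM with LPS. It fell by 0.25 (limma adjusted p = 0.000479) with no overlap. HSPB11 was at 9.83 to 11.1 FPKM with LPS + 3-HPA and 10.6 to 11.7 FPKM with LPS, and did not pass (adjusted p = 0.239).

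The mitochondrial chaperones summed to 66.5 to 67.3 FPKM in LPS + 3-HPA libraries and 81.4 to 85.2 FPKM in LPS libraries. Most of the sum was HSPA9, with a mean of 43.8 FPKM with LPS + 3-HPA and 56.9 FPKM with LPS. Of the 5 genes none rose, 2 fell and 3 did not pass, while of all genes tested 15.7% rose and 28.0% fell. HSPA9 (ENSG00000113013, on chromosome 5 from 138553756 to 138575724 in GRCh38) encodes mortalin, the HSP70 that pulls imported proteins into the matrix. It had 43.8, 43.9, 43.3 and 44.2 FPKM with LPS + 3-HPA, against 56.5, 56.3, 55.9 and 59.0 FPKM with LPS. The spread within each group was small beside the gap between them, and HSPA9 fell by 0.37 (SE 0.02, limma adjusted p = 8.27e-07), and its mean fell by 23.1%. HSPD1 (HSP60), the matrix chaperonin, had 13.5, 15.2, 14.4 and 14.6 FPKM with LPS + 3-HPA, against 16.6, 17.4, 17.4 and 16.8 FPKM with LPS. It fell by 0.23 (limma adjusted p = 0.000807), with no overlap.

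HSPE1 (HSP10), the lid of HSPD1, had 1.28, 1.40, 1.62 and 1.35 FPKM with LPS + 3-HPA, against 1.23, 0.811, 1.10 and 1.32 FPKM with LPS. Its log2 fold change of 0.19 did not pass (limma adjusted p = 0.092), and 43.9% of its 75-base stretches occur in other genes. TRAP1, the mitochondrial HSP90, had a log2 fold change of -0.11 (adjusted p = 0.12), and DNAJA3, the J protein of the matrix, varied from 1.14 to 2.98 FPKM with LPS + 3-HPA and 1.57 to 3.61 FPKM with LPS (95% interval of the log2 fold change -0.63 to 0.45). The ratio of cytosolic HSPA8 to mitochondrial HSPA9 was 1.77 ± 0.0352 with LPS + 3-HPA and 1.27 ± 0.0448 with LPS (SD, n = 4 each). Transcripts of the mitochondrial genome itself, as given above, made up a larger share of FPKM with LPS + 3-HPA. With FPKM totals equalised outside the mitochondrial genome, the log2 fold change was -0.38 for HSPA9 (limma adjusted p = 7.91e-07) and -0.24 for HSPD1 (adjusted p = 0.000695).

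The chaperonin TRiC is a double ring of 8 different subunits that folds actin and tubulin. Of its 7 subunit genes tested, none rose, 3 fell and 4 did not pass, and they summed to 250.2 to 254.9 FPKM with LPS + 3-HPA and 259.7 to 268.7 FPKM with LPS. Of all genes with a mean of at least 10 FPKM, as these 7 had, 24.9% were higher and 39.7% lower. CCT2 had 18, 17.3, 18.3 and 18.8 FPKM with LPS + 3-HPA, against 20.2, 22.0, 21.0 and 20.6 FPKM with LPS. It fell by 0.20 (limma adjusted p = 0.00097) with no overlap. CCT7 fell by 0.16 (adjusted p = 0.00283) and TCP1 by 0.10 (adjusted p = 0.0104), and for TCP1 the adjusted p was 0.258 under TMM scaling.

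The most abundant subunit, CCT3, had 55.8, 55.2, 58.4 and 54.7 FPKM with LPS + 3-HPA, against 52.8, 52.8, 57.0 and 53.7 FPKM with LPS. The groups overlapped through LPS library 3, and the log2 fold change of 0.05 did not pass (limma adjusted p = 0.204). It passed without that library (adjusted p = 0.0443) and under TMM scaling (adjusted p = 0.0145). The within-library ratio of CCT3 to CCT2, the tested subunits with the most positive and the most negative fold change and paired with those values known, was 3.10 ± 0.135 with LPS + 3-HPA and 2.58 ± 0.128 with LPS (SD, n = 4 each). CCT4, CCT5 and CCT6A had log2 fold changes of -0.02, 0.00 and -0.05 and did not pass (adjusted p 0.19 to 0.925). CCT5 shares 47.5% of its 75-base stretches with other genes, an antisense gene and a pseudogene, so its value is uncertain.

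**Figure D4:**
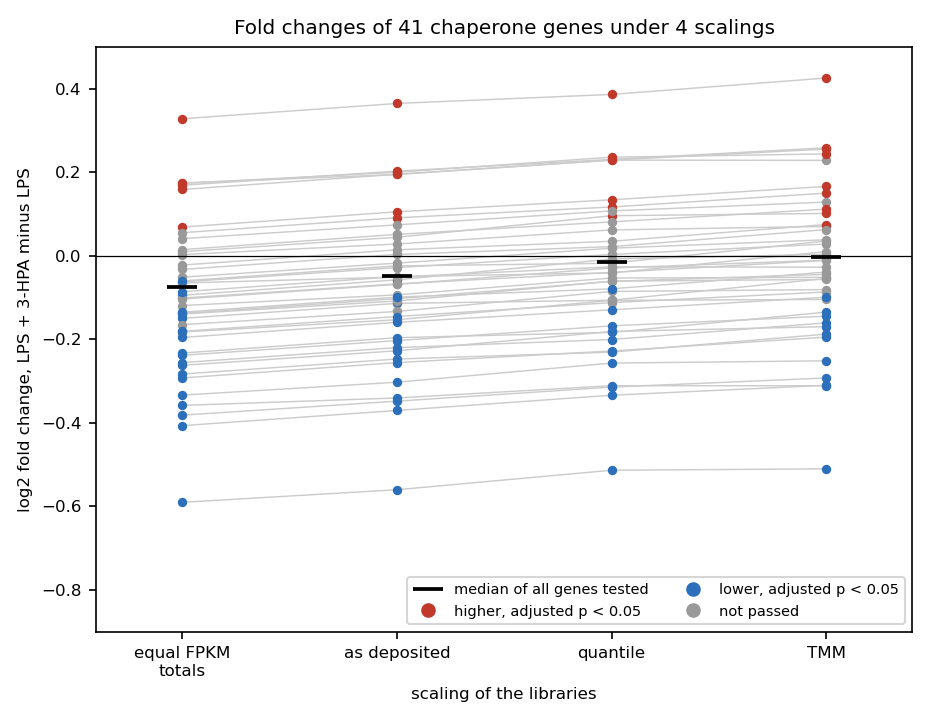
Log2 fold change (LPS + 3-HPA minus LPS) of the 41 chaperone genes tested under equal FPKM totals, as deposited, and under quantile and TMM scaling. HSP90AB1 moves across 0 under TMM scaling, while STIP1 and FKBP5 keep their sides in all of them.

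Further chaperone genes were taken from a list of 66, of which 61 were in the table and 48 were tested. Of these, 13 fell (27.1%, against 28.0% of all genes), 6 rose (12.5%, against 15.7% of all genes) and 29 did not pass, shares near those of all genes. The median log2 fold change was -0.08, against -0.05 over all genes. The largest rise was DNAJC5, a J protein of secretory vesicles also called cysteine string protein, at 72.6 ± 0.478 FPKM with LPS + 3-HPA and 56.3 ± 0.824 FPKM with LPS (log2 fold change 0.36, limma adjusted p = 1.92e-07). UNC45A, a myosin chaperone, rose by 0.17 (adjusted p = 0.00294) and CACYBP, an adaptor of a ubiquitin ligase complex, by 0.16 (adjusted p = 0.031). The CACYBP call ended without LPS + 3-HPA library 2, 3 or 4 or LPS library 3 or 4. It also ended with no filter on low values, with equal FPKM totals and with the replicate number as a block. The largest falls were in GRPEL2, LONP1 and DNAJC15. GRPEL2, an exchange factor of HSPA9, was at 8.01 ± 0.275 FPKM with LPS + 3-HPA and 10.7 ± 0.177 FPKM with LPS. Its log2 fold change was -0.37 (limma adjusted p = 9.08e-06). GRPEL1, its relative with the same role, did not pass (log2 fold change 0.01, limma adjusted p = 0.863). LONP1, the main matrix protease, was at 35.1 ± 1.35 FPKM with LPS + 3-HPA and 44.0 ± 0.641 FPKM with LPS. Its log2 fold change was -0.32 (limma adjusted p = 1.8e-05). DNAJC15, a J protein of the import motor, fell by 0.30 (limma adjusted p = 0.00222). Under TMM scaling, 9 genes of the further list rose and 9 fell, and with equal FPKM totals 2 rose and 18 fell.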

How the data were processed

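RNA-seq values of 8 THP-1 libraries were deposited by the authors as FPKM in 1 table of 30233 genes. Per the submitters' processing notes, fastp 0.22.0, HISAT2 2.1.0 and featureCounts (version not given in the sources used here) were used on GRCh38. Strand setting and annotation release are likewise not given. Symbols were matched for 30221 identifiers, and GENCODE 29 supplied positions. Library totals and reads per gene were recovered from the FPKM as whole numbers (tolerance 0.01). The GENCODE 29 length gave whole reads for 13722 of the 28364 genes with one. For the others a length of up to 120000 bases was searched for and the fit nearest the annotated length taken, so their reads are estimates that can be a multiple of the true number. The reads of the 30231 genes with a fit summed to 101% of the library totals.

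Genes reaching 0.5 FPKM in 4 or more libraries (12499) were tested in R 4.3.3 with limma 3.58.1, two-sided and with its mean-variance trend, after log2(FPKM + 1). P-values were adjusted over all of them by Benjamini-Hochberg, and calls were made at 0.05. Fold changes are LPS + 3-HPA minus LPS. The members and lists were chosen with earlier results of these data known. Every member may be named. Values of all libraries are given for the most abundant member of each role group and for its largest called change in each direction. They are also given for further members where a call or its direction is discussed. Of the further list the 3 largest in each direction are given, and GRPEL1 beside GRPEL2. The test was tried on simulated data of 12499 genes for this comparison. Of 50 genes changed 1.25-fold it recovered 35, of 50 changed 1.5-fold 43, and all 50 at 2-fold and at 3-fold, with 15 false calls. Noise was normal and independent between genes. The changes were planted on the log2(FPKM + 1) scale, only in genes with a mean above 1 on it. Only these genes changed, while 43.7% of genes were called in the deposited data, so recovery and false calls there can differ.

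Alternatives were a pseudocount of 0.1 or 0.5, all genes unfiltered, a 1 FPKM filter, equal FPKM totals (over all genes, or outside the mitochondrial genome), TMM factors computed from FPKM, quantile normalisation, no trend, a block for the replicate number, each library left out and, added after seeing the data, limma voom on these partly estimated reads (2041 genes higher, 3751 lower). Intervals cover the spread between libraries only. Tables and figures were made with pandas 2.3.3, numpy 2.4.6, matplotlib 3.10.9 and Python 3.11.15. Promoter sequences are from RefSeq.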

Additional observations from a re-analysis of the deposited data

Results flagged for a closer look

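AHSA1, the activator of the HSP90 ATPase, had 1 library far from the others of its group: LPS library 3 was lowest at 21.8 FPKM, against 23.2 to 23.5 FPKM in the other LPS libraries. The gap was 0.840 of the range of the group, above the 95% critical value of Dixon's test for 4 samples. This was 1 of 82 groups of 4 checked, and chance flags about 1 group in 20. Without that library AHSA1 still fell (log2 fold change -0.17, limma adjusted p = 0.00778).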

How the results depend on the processing

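The median log2 fold change of the 41 genes, -0.07 as reported, was -0.10 with a pseudocount of 0.1, -0.10 with equal FPKM totals, -0.027 with TMM scaling, -0.041 with quantile normalisation and -0.10 with voom, and leaving out a library gave -0.094 to -0.069. Of the further list, 2 genes rose with no filter and 2 with equal FPKM totals, against 6 as reported, and leaving out a library gave 3 to 5. Of the 41 genes, 4 to 5 rose and 17 to 18 fell when a library was left out, and 10 to 14 of the further list fell. Over all genes, leaving out a library gave 1754 to 1831 higher and 3060 to 3227 lower, and TMM gave 2597 and 2521, so that 50.7% of calls were higher, against 36.0% as deposited. HSP90AB1 changed sign under TMM (0.0037), and the cause was not tested; its adjusted p was 0.798 with quantile normalisation and 0.0882 without the trend. Of the 6 genes that rose, 4 kept their call under every alternative, as did 12 of the 17 that fell, and of the 18 that did not pass, 11 stayed so. Deviations of same-numbered libraries of the 2 groups correlated at -0.02 to 0.09, and those of differently numbered ones at -0.06 to 0.08. With so few libraries, this cannot tell whether same-numbered libraries shared a culture or batch. With the number as a replicate block, 4 genes rose and 18 fell, with BAG3 (adjusted p = 0.0957) and FKBP4 (0.0645) no longer called and TRAP1 (0.0439) called. Members with low levels rest on fewer reads, and reads per gene are partly estimates.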
